A study of Mus musculus with 28 samples.

Results

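Sirtuins and NAD glycohydrolases are enzymes that split nicotinamide from NAD, and their transcripts were followed here in the liver and kidney of mice that received nicotinamide mononucleotide (NMN), a precursor of NAD. The set was defined by gene name as the sirtuins Sirt1 to Sirt7 and the NAD glycohydrolases Cd38, Bst1 and Sarm1, which are 10 of the 54446 genes listed in each library. RNA from 8-week-old male C57BL/6 mice (C57BL6J by the methods) was sequenced after polyA selection, in 28 libraries. Mice were gavaged for 7 days with NMN or with water, once daily (1340 mg/kg/d of NMN, 4 NMN and 4 water libraries per organ) or 2 times daily (2680 mg/kg/d of NMN, 3 and 3 per organ), and the water mice of each schedule had the same number of gavages without NMN. All groups shared strain, sex and age, no engineered allele is named, and the libraries of a group were biological replicates. The question was whether a load of NAD precursor changed the transcripts of the enzymes that consume NAD.

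Sirtuins remove acetyl or other acyl groups from lysine and use up NAD in each reaction. SIRT1, SIRT6 and SIRT7 are found mainly in the nucleus and SIRT2 mainly in the cytosol, whereas SIRT3, SIRT4 and SIRT5 are mitochondrial. CD38 and BST1 (CD157) are surface enzymes that cleave NAD to ADP-ribose and nicotinamide and are well known from immune cells. SARM1 is an NAD glycohydrolase of neurons that drives axon degeneration. In liver, SIRT1 and SIRT3 are known for roles in the fasting response and fat oxidation, and SIRT5 for removing succinyl and related groups from urea cycle and other metabolic enzymes.

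Promoter sequences are shown for the 4 members that had an unadjusted p under 0.05 in a comparison of NMN with water, namely Sirt1 and Sirt5 in liver and Sirt3 and Cd38 in kidney, although none passed adjustment. The set of RefSeq starts used here, on mouse build GRCm38.p6, held 9 of the 10 members. It held none for Bst1, so no window is given for that gene. Each line gives the 250 bases before the start, 5′ to 3′ on the strand of the gene, with the E-box CACGTG in capitals, a palindrome that reads the same on both strands, and for Sirt3 the window before the first of its 2 starts.
Sirt1, chr10:63339036-63339285, - strand: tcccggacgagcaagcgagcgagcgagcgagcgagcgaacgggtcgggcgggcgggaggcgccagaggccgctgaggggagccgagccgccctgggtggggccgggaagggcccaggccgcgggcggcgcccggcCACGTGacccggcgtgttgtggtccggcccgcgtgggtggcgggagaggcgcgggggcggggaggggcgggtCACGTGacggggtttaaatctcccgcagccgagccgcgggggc
Sirt3, chr7:140882310-140882559, - strand: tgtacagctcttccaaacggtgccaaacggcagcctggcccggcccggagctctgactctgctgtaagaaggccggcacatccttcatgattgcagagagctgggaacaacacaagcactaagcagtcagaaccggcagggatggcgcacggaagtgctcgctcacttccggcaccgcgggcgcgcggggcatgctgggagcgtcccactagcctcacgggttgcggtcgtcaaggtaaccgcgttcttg
Sirt5, chr13:43365285-43365534, + strand: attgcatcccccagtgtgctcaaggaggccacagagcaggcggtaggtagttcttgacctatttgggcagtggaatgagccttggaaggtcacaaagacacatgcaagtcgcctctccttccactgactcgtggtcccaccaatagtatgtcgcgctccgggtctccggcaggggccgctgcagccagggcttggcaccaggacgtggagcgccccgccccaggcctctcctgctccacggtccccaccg
Cd38, chr5:43868559-43868808, + strand: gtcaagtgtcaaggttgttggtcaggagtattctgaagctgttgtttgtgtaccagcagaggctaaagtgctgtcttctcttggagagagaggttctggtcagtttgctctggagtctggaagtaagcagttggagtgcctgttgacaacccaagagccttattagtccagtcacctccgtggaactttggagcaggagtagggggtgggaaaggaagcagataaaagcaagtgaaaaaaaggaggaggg
CACGTG stood 2 times in the Sirt1 window, beginning 115 and 43 bases before the start, and in none of the other 10 windows of the members. Of all 32851 RefSeq windows of this length, 6.02% held it at least once and 0.429% at least 2 times. The Sirt1 window was 79.2% G and C, above 98.4% of all windows, and held the GC box GGGCGG 6 times on either strand, a motif found in 32.7% of all windows. The Cd38 window was 48.8% G and C, close to the median of 52.4% over all windows, and held only 1 CG pair against 39 in the Sirt1 window. TATAAA was in no window of the members and in 12.4% of all windows. These are matches of letters only.

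The depth of the libraries was 12688324 to 33872983 reads counted in genes. Values are CPM (reads of a gene relative to the size of the library, scaled between libraries by the TMM method of edgeR), or TPM where genes are compared with each other, which also divides by the length of the gene. Each organ carried its own markers, and in bulk tissue fewer cells of a type and less RNA per cell cannot be told apart. The hepatocyte markers Alb, Apoa1, Ttr, Serpina1a and Fgb summed to a mean of 139500 CPM in liver of once-daily water mice and 172.9 CPM in their kidney, and the proximal tubule markers Lrp2, Cubn, Slc34a1, Slc5a2 and Kap to 22020 CPM in kidney and 52.77 CPM in liver. The trace of proximal tubule markers in liver was thus 0.24% of their kidney level, and in the twice-daily water mice it was 0.0263%.

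Some libraries stood apart. In liver of once-daily NMN mice, replicate 4 had 12.77% of its reads outside annotated exons, where the other 7 liver libraries of that schedule had 4.906% to 7.442%, and 5.098% of its reads overlapped more than 1 gene and were assigned to none, where those 7 had 3.092% to 3.593%. Kidney libraries of the twice-daily schedule carried 19.78% to 21.56% mitochondrial reads and those of the once-daily schedule 8.921% to 10.63%. The schedule and the set of libraries cannot be told apart, so levels were not compared between schedules. Reads were counted without strand, and annotated exons of Sirt3 share bases with Ric8a and Psmd13 on the opposite strand (7% and 5.73% of the Sirt3 exon bases), while those of Sirt7 share 2.41% with Mafg on the same strand. Reads of such stretches cannot be told apart from those of the neighbour.

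**Figure D1:**
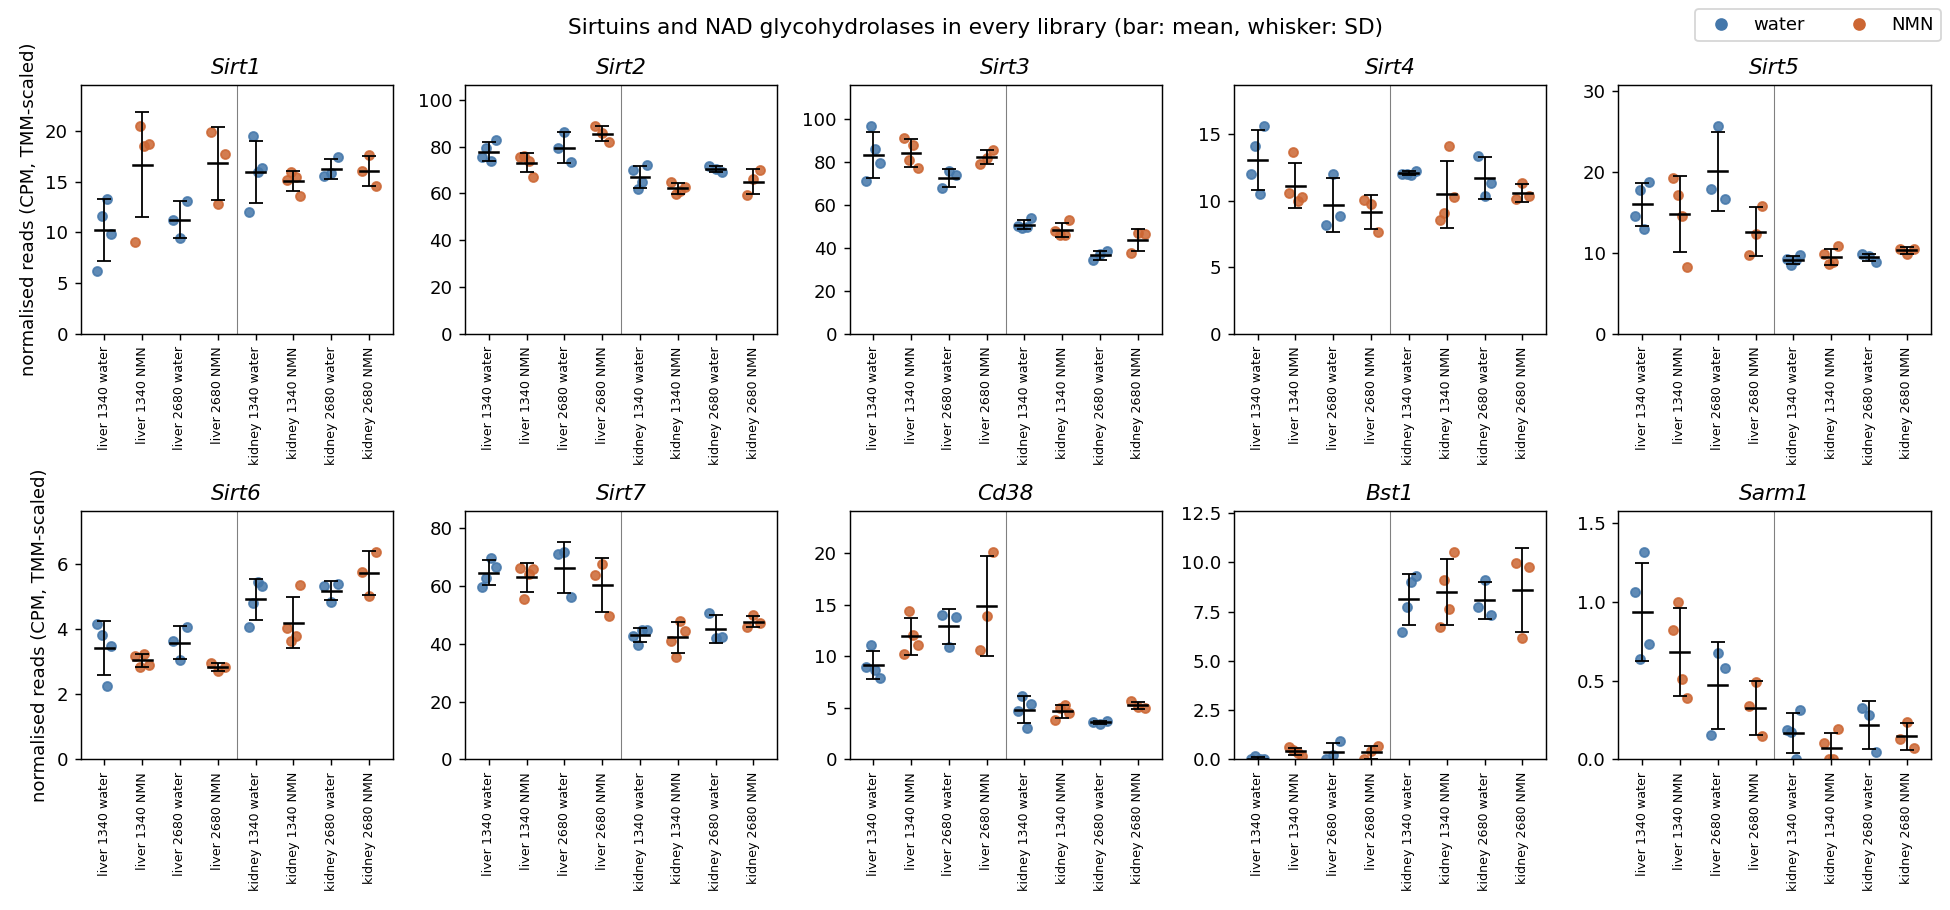
Normalised reads (CPM, TMM-scaled, linear axes from 0) of the 10 members in each of the 28 libraries, by organ, schedule and treatment, with the mean and SD of each group. Points of NMN and water mice overlap in most panels, Bst1 lies near 0 in liver and between 6.155 and 10.52 CPM in kidney, and Sarm1 is at or below 1.314 CPM throughout.

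Sirt2 had the highest mean level of the members in both organs and Sarm1 and, in liver, Bst1 had the lowest. In liver of once-daily water mice, Sirt2 had 26.09 ± 1.16 TPM (SD, n = 4), Sirt3 23.57 ± 3.86 and Sirt7 21.24 ± 2.58, and the libraries of neighbours in this order overlapped. Sirt4, the mitochondrial sirtuin known as an ADP-ribosyltransferase and lipoamidase, followed at 9.14 ± 1.21 TPM, apart from both its neighbours. Sirt5 (4.40 ± 0.59 TPM), Cd38 (3.97 ± 0.66), Sirt1 (3.28 ± 1.15) and Sirt6 (2.06 ± 0.42) formed a run in which each overlapped the next. Sarm1 had 0.284 ± 0.11 TPM and Bst1 0.0231 ± 0.0462 TPM. In twice-daily water mice the liver order began with Sirt2 (23.2 ± 1.21 TPM, n = 3), Sirt7 (18.8 ± 1.58) and Sirt3 (17.9 ± 1.63) and ended with Bst1 (0.176 ± 0.226) and Sarm1 (0.124 ± 0.0742), and the last pair overlapped.

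In kidney of once-daily water mice, Sirt2 had 50.9 ± 1.36 TPM (n = 4), above Sirt3 (32.5 ± 1.74) and Sirt7 (31.9 ± 1.84), which overlapped. Sirt4 (19.2 ± 1.16 TPM) was apart from both neighbours, and Sirt1 (11.6 ± 2.91), Bst1 (9.41 ± 1.66), Sirt6 (6.79 ± 1.07), Sirt5 (5.72 ± 0.22) and Cd38 (4.76 ± 1.47) overlapped one with the next. Sarm1 was last at 0.112 ± 0.0840 TPM. In kidney of twice-daily water mice the order was Sirt2, Sirt7, Sirt3, Sirt4, Sirt1, Bst1, Sirt6, Sirt5, Cd38 and Sarm1, from 40.5 ± 1.82 to 0.114 ± 0.0790 TPM (n = 3), and no pair of neighbours overlapped. With the length of the longest transcript in place of all annotated exons, all 10 members kept their place in liver of once-daily water mice, 5 did in liver of twice-daily water mice and 6 in kidney of each schedule.

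Within a library, the share of each sirtuin in the summed TPM of the 7 sirtuins does not depend on the scaling between libraries. Sirt1 made up 3.59% ± 1.00 of sirtuin TPM in liver and 7.24% ± 1.49 in kidney of once-daily water mice (n = 4 each), and 4.15% ± 0.973 and 7.61% ± 0.625 in twice-daily water mice (n = 3 each). The liver and kidney libraries did not overlap in either schedule. Sirt6, a nuclear sirtuin that acts in DNA repair and in restraining glycolytic genes, also had the smaller share in liver, 2.33% ± 0.627 against 4.26% ± 0.484 and 2.53% ± 0.533 against 4.63% ± 0.208, without overlap. Sirt3 and Sirt5 had the larger share in liver. Sirt3 made up 26.1% ± 2.25 in liver and 20.5% ± 0.215 in kidney of once-daily water mice, and 23.6% ± 1.80 and 15.2% ± 1.34 in twice-daily water mice. Sirt5 made up 4.92% ± 0.639 and 3.61% ± 0.0875, and 6.33% ± 1.04 and 3.84% ± 0.174, in the same order. Sirt4 went the other way, with 10.2% ± 1.38 in liver and 12.1% ± 0.356 in kidney of once-daily water mice, where both ranges reached 11.7%, and 7.77% ± 1.11 and 12.1% ± 1.15 in twice-daily water mice, without overlap. Sirt7 made up 23.7% ± 1.73 in liver and 20.1% ± 0.75 in kidney of once-daily water mice, without overlap, and 24.9% ± 2.28 and 21.7% ± 1.57 in twice-daily water mice, with overlap. Sirt2 had the smaller share in liver, with 29.2% ± 1.46 against 32.2% ± 1.52 in once-daily water mice, with overlap. In twice-daily water mice it made up 30.7% ± 0.437 in liver and 34.9% ± 0.976 in kidney, without overlap. The 3 mitochondrial sirtuins together took 41.3% ± 2.06 in liver and 36.2% ± 0.442 in kidney of once-daily water mice, and 37.7% ± 2.39 and 31.2% ± 0.424 in twice-daily water mice.

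**Figure D2:**
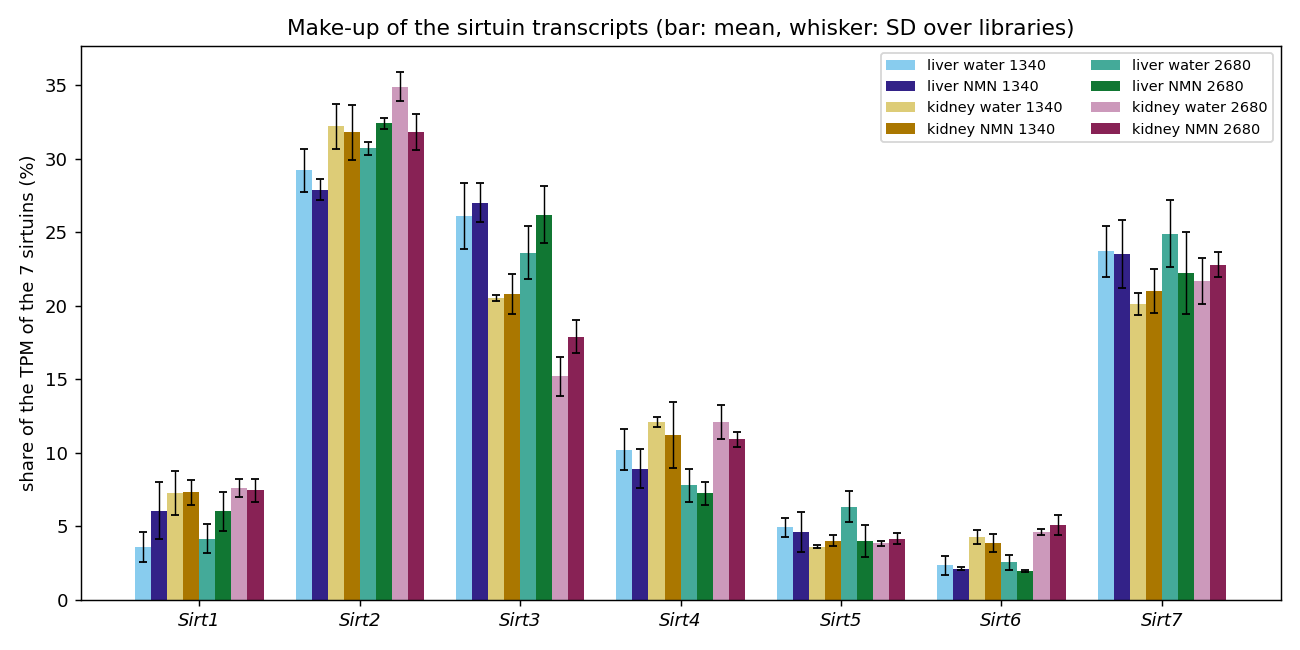
Share of each sirtuin in the summed TPM of the 7 sirtuins (percent, y axis from 0), as the mean and SD over the libraries of each organ, treatment and schedule. Sirt1 and Sirt6 bars of liver water mice (3.59% and 2.33% once daily) are below those of kidney water mice (7.24% and 4.26%), and Sirt3 and Sirt5 bars are above them.

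The 2 organs were then compared in water mice by the edgeR quasi-likelihood test. With the few mice per group that the article states, some mice must have given both organs. No label says which, and the test treated all libraries as independent. Bst1 lay furthest apart between the organs. Liver libraries of once-daily water mice held 0, 2, 0 and 0 reads of Bst1 and kidney libraries 140, 181, 203 and 210, and in twice-daily water mice liver held 0, 3 and 11 reads and kidney 189, 194 and 157. Every kidney library was far above every liver library. The mean kidney level of 8.13 CPM was 171 times the pooled liver level in once-daily mice (95% counting interval on the liver reads 47.3 to 1410), and 8.07 CPM was 22.2 times it in twice-daily mice (13.3 to 40.7). These intervals cover counting error only, and the ratios turn on single liver libraries. They also rest on TMM. With library totals kidney had 8.919 to 13.42 CPM and liver at most 0.1332 CPM in once-daily mice. In twice-daily mice kidney had 9.184 to 11.86 CPM and liver at most 0.626 CPM. Both reads of the once-daily mice came from water replicate 2. Without it kidney was at least 83.9-fold higher, against a floor of 3 reads over the group, about the one-sided 95% limit of a count of 0. By the two-sided limit, as used for the other ratios, it was at least 68.3-fold higher. In twice-daily mice the ratio was 71.4 (24.4 to 346) without water replicate 3, which held 11 of the 14 reads, and 14.6 (8.72 to 26.8) without water replicate 1. Bst1 entered the test of the organs only through its kidney reads, so no p is given for it.

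The other members differed by less, and the sign of the difference depended on how libraries were scaled for 6 of them in once-daily and 2 in twice-daily mice. The TMM factor was 0.64 to 0.813 in liver and 1.25 to 1.51 in kidney, and without it the median log2 difference of all tested genes moved by -0.946 in once-daily and -0.926 in twice-daily water mice. With TMM, and leaving Bst1 out, 5 of 8 tested members passed the threshold of an adjusted p under 0.05 in each schedule, 4 higher and 1 lower in liver (Sirt1), beside 66.9% of all 14599 tested genes in once-daily mice (30.9% higher, 36.1% lower) and 70.5% of 14844 in twice-daily mice (31% and 39.5%). The share of members called was therefore close to that of all genes. With library totals alone, chosen after the data were seen, 0 of these members were called higher and 5 lower in once-daily mice, and 1 higher and 5 lower in twice-daily mice. Over all genes, 46.1% of the called genes were higher in liver with TMM and 14.2% with library totals in once-daily mice, and 44% and 15.1% in twice-daily mice.

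Cd38 had 8.93, 11.07, 8.64 and 7.88 CPM in liver of once-daily water mice and 4.67, 6.18, 3.06 and 5.32 CPM in kidney, without overlap. In twice-daily water mice it had 13.95, 10.92 and 13.79 CPM in liver and 3.64, 3.43 and 3.70 CPM in kidney, again without overlap, which held for 62% and 75.2% of all genes. Its log2 difference was 0.90 (SE 0.24, adjusted p = 0.00431) and 1.81 (SE 0.20, adjusted p = 1.08e-05) with TMM, and -0.05 (adjusted p = 0.851) and 0.88 (adjusted p = 0.0021) with library totals. Only in twice-daily mice was Cd38 called higher in liver under both. Macrophage and Kupffer cell markers (Adgre1, Csf1r, Cd68, Clec4f, Vsig4 and Timd4) also had the higher sum in liver. Its mean was 112.7 CPM against 39.1 CPM in once-daily and 183.8 CPM against 34.25 CPM in twice-daily water mice. Clec4f led the sum in liver and Csf1r in kidney. Of the 6, 5 were called higher and 1 lower in liver with TMM in once-daily mice, beside 30.9% and 36.1% of all genes. In twice-daily mice 5 were called higher and 0 lower, beside 31% and 39.5%. Timd4 was at 0 in kidney of once-daily water mice, and Clec4f and Vsig4 in that of twice-daily water mice. B and plasma cell markers summed to a mean of 5.262 and 2.343 CPM in once-daily and 7.624 and 3.28 CPM in twice-daily mice, liver first. T and NK cell markers had group means of at most 2.117 CPM, with single libraries up to 3.49 CPM. The part of these cells in the Cd38 difference was not tested.

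Sirt3, the main deacetylase of mitochondria, had 71.02, 96.35, 85.69 and 79.23 CPM in liver of once-daily water mice and 50.21, 49.22, 49.78 and 53.67 CPM in kidney. In twice-daily water mice it had 67.86, 75.72 and 73.87 CPM in liver and 34.25, 37.05 and 38.24 CPM in kidney. All liver libraries were above all kidney libraries, with a log2 difference of 0.69 (SE 0.12, adjusted p = 0.000201) and 0.96 (SE 0.11, adjusted p = 2.09e-05) with TMM, but of -0.26 (adjusted p = 0.067) and 0.03 (adjusted p = 0.813) with library totals. Sirt5 differed by 0.78 (SE 0.16, adjusted p = 0.000898) and 1.06 (SE 0.18, adjusted p = 0.000399) with TMM, and by -0.17 (adjusted p = 0.352) and 0.13 (adjusted p = 0.54) with library totals. Sirt7, a nuclear and nucleolar sirtuin linked to ribosomal RNA transcription, was higher in liver by 0.57 (SE 0.11, adjusted p = 0.000537) and 0.52 (SE 0.13, adjusted p = 0.00416) with TMM and lower by library totals, at -0.38 (adjusted p = 0.00766) and -0.41 (adjusted p = 0.0138).

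Sirt1 was lower in liver under both scalings. Liver of once-daily water mice had 6.17, 11.61, 13.33 and 9.80 CPM and kidney 11.99, 19.49, 15.97 and 16.41 CPM, with overlap, and liver of twice-daily water mice had 11.22, 9.43 and 13.13 CPM and kidney 15.55, 15.89 and 17.41 CPM, without overlap. The log2 difference was -0.66 (SE 0.23, adjusted p = 0.021) and -0.56 (SE 0.17, adjusted p = 0.0126) with TMM and -1.61 and -1.49 with library totals (adjusted p = 6.65e-05 and 1.36e-05). The TMM call was lost without kidney water replicate 2 of the once-daily schedule (adjusted p = 0.0746) and without kidney water replicate 3 of the twice-daily schedule (adjusted p = 0.0567). Sirt6 had a log2 difference of -0.55 (SE 0.25, adjusted p = 0.0699) and -0.56 (SE 0.24, adjusted p = 0.0553) with TMM and of -1.50 and -1.49 with library totals (adjusted p = 0.000124 and 0.000163). Sirt2 and Sirt4 did not pass with TMM. Sirt2, a tubulin and histone deacetylase, was higher in every liver library than in every kidney library and differed by 0.19 (95% interval -0.04 to 0.42) and 0.14 (-0.10 to 0.38), and Sirt4 by 0.09 (-0.26 to 0.44) and -0.31 (-0.75 to 0.13). With library totals both were lower in liver in both schedules, with a log2 difference of -0.76 and -0.79 for Sirt2 and of -0.86 and -1.24 for Sirt4.

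**Figure D3:**
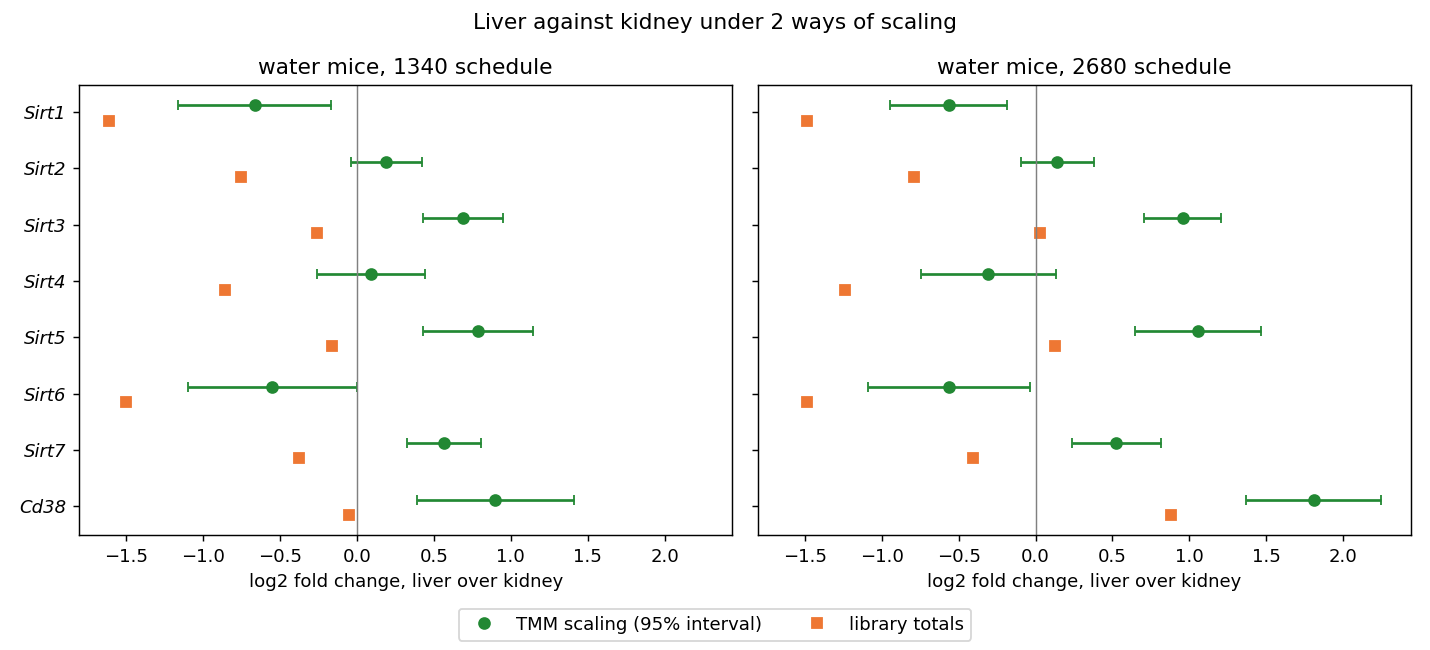
Log2 difference of liver over kidney in water mice (x axis) for 8 members, with TMM scaling and its 95% interval (circles) and with library totals (squares), in the once-daily (left) and twice-daily (right) schedule. Squares lie to the left of the circles by about the shift of all genes (-0.946 and -0.926), so Sirt1 and Sirt6 are below 0 under both, while Sirt7 changes sign in both schedules.

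Sarm1 was scarce in both organs, with 2 to 14 reads per library in liver and 0 to 8 in kidney. Liver of once-daily water mice had 1.06, 0.64, 1.31 and 0.73 CPM and kidney 0.19, 0.17, 0 and 0.31 CPM, so that on this scale all liver libraries were above all kidney libraries, while in twice-daily water mice the 2 organs overlapped. Sarm1 did not pass the read filter of edgeR in the organ test. It entered that of DESeq2 through its liver reads, so no p is given for it, as for Bst1.

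Turning to NMN, no member passed the threshold in any of the 4 comparisons with water. In liver 0 of 8 tested members were called at 1340 mg/kg/d, beside 0.0161% of all genes, and 0 of 8 at 2680 mg/kg/d, beside 7.08%. In kidney 0 of 9 were called at 1340 mg/kg/d, beside 0.12%, and 0 of 9 at 2680 mg/kg/d, beside 0.4%. At an unadjusted p under 0.05 the counts of members were 1, 2, 0 and 2 in the same order, beside 6.86%, 24.6%, 8.94% and 11.1% of all genes, and DESeq2 called 0 members in each, beside 0.573%, 11.6%, 1.23% and 1.52% of genes. Bst1 in liver and Sarm1 in both organs had too few reads for the edgeR filter. Where liver responded broadly, at 2680 mg/kg/d with 883 of 12477 genes called, the median absolute log2 change of the tested members was 0.216 and that of all tested genes 0.316. The values were 0.128 and 0.174 in liver and 0.0753 and 0.135 in kidney at 1340 mg/kg/d. In kidney at 2680 mg/kg/d they were 0.132 and 0.126, with the members slightly above. Genes were not matched by read number, and the difference was not tested.

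**Figure D4:**
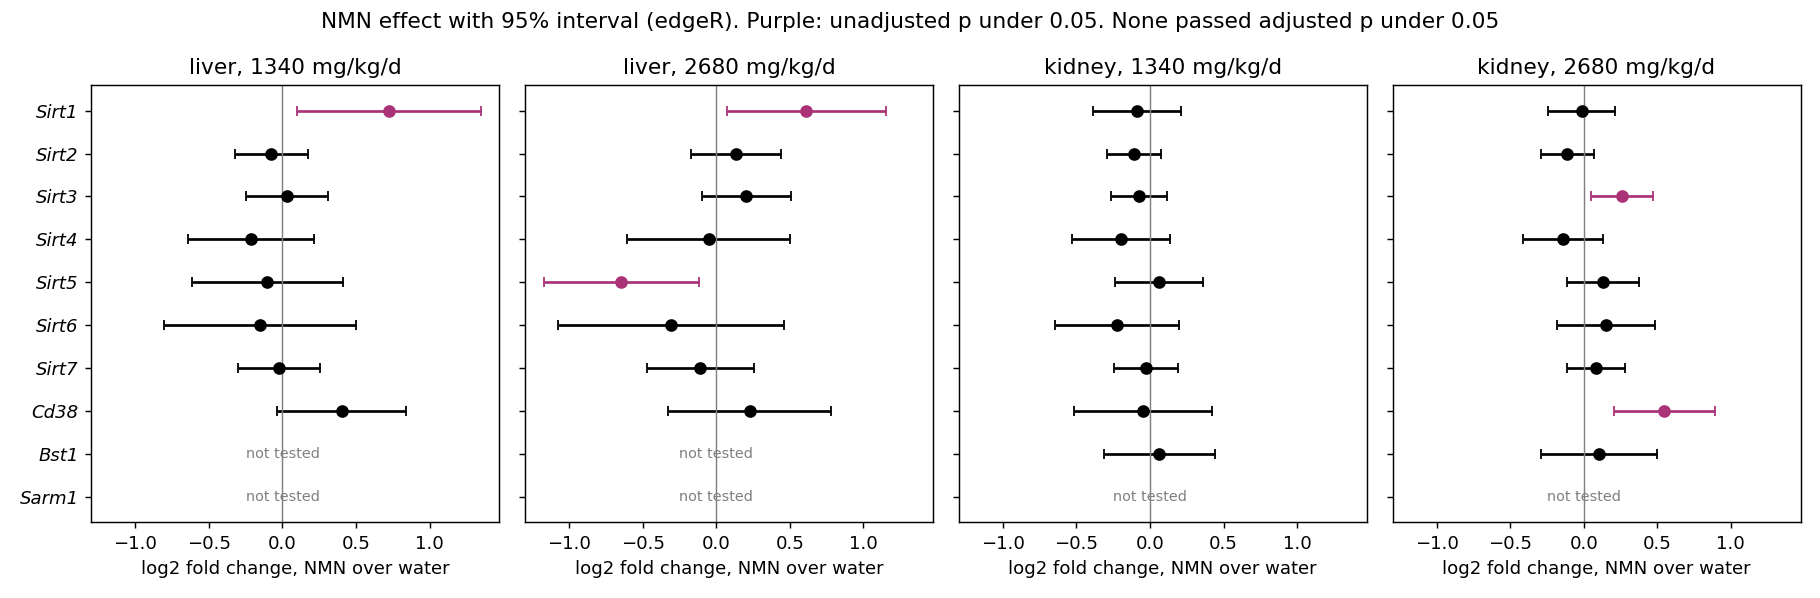
Log2 fold change of NMN over water (x axis) with its 95% interval for each member in the 4 comparisons, with those of unadjusted p under 0.05 in purple. Intervals in kidney are narrower than in liver for the sirtuins, and Sirt1 in liver (0.72 and 0.61), Sirt5 in liver at 2680 mg/kg/d (-0.65) and Sirt3 and Cd38 in kidney at 2680 mg/kg/d (0.26 and 0.55) are the ones whose interval leaves out 0.

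Sirt1 was higher on average in liver of NMN mice in both schedules, without passing adjustment. Water mice of the once-daily schedule had 6.17, 11.61, 13.33 and 9.80 CPM and NMN mice 9.03, 20.48, 18.50 and 18.71 CPM. Water mice of the twice-daily schedule had 11.22, 9.43 and 13.13 CPM and NMN mice 19.89, 12.80 and 17.76 CPM. In each schedule 1 NMN library lay among the water libraries and the others were above them, where non-overlap held for 3.54% and 29.2% of all genes. The fold was 1.65 (95% interval 1.07 to 2.54, unadjusted p = 0.0265, adjusted p = 0.663) at 1340 mg/kg/d and 1.53 (1.05 to 2.22, unadjusted p = 0.0301, adjusted p = 0.156) at 2680 mg/kg/d. The exact permutation test of log2 CPM gave p = 0.114 at 1340 mg/kg/d, where the smallest possible two-sided p is 0.0286, and p = 0.2 at 2680 mg/kg/d, where 3 against 3 cannot go below 0.1. The reads outside annotated exons made up 3.896% to 5.058% in the NMN livers at 2680 mg/kg/d and 3.273% to 3.618% in water livers, with the largest share in the library of 19.89 CPM and the smallest NMN share in that of 12.80 CPM. At 1340 mg/kg/d the NMN library of 9.03 CPM had the smallest share of the 8, at 4.906%, and that of 18.71 CPM, replicate 4, the largest, at 12.77%, with a hepatocyte marker sum of 107700 CPM, the lowest of the 8. The hepatocyte markers were lower in NMN livers at 2680 mg/kg/d (149000 to 173100 CPM against 200400 to 233200 CPM). The part of either in the Sirt1 values was not tested.

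A fit of both schedules together, added after the data were seen, gave Sirt1 in liver a log2 change of 0.68 (SE 0.20, unadjusted p = 0.00309, adjusted p = 0.0587), with 564 of 13412 genes (4.21%) called. DESeq2 gave adjusted p = 0.0227 for the same design, and edgeR with a replicate block gave 0.0242. Leaving out 1 library at a time moved the edgeR adjusted p between 0.0147 and 0.135. The call for Sirt1 thus depends on the tool, on the block and on single libraries. It was called without liver water replicate 3 (adjusted p = 0.0353) or without liver NMN replicate 1 (adjusted p = 0.0147) of the once-daily schedule. In kidney the same fit gave -0.06 (95% interval -0.25 to 0.13). Single schedules gave -0.09 (-0.39 to 0.21) and -0.01 (-0.24 to 0.22) in kidney. The difference of the NMN effect between organs was 0.79 (SE 0.33, unadjusted p = 0.0257, adjusted p = 0.808) at 1340 mg/kg/d and 0.61 (SE 0.27, unadjusted p = 0.0378, adjusted p = 0.225) at 2680 mg/kg/d, and that between schedules in liver was -0.10 (95% interval -0.96 to 0.75).

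Sirt5 in liver went the other way at the higher dose. Water mice of the twice-daily schedule had 17.89, 25.59 and 16.62 CPM and NMN mice 9.74, 12.31 and 15.74 CPM, without overlap, a fold of 0.639 (95% interval 0.443 to 0.922, unadjusted p = 0.0209, adjusted p = 0.131). Groups did not overlap and were higher for 13.1% and lower for 16% of all genes in this comparison, and among the members non-overlap held also for Sirt3 (67.86, 75.72 and 73.87 CPM in water mice, 78.81, 81.88 and 85.37 in NMN mice) and for Sirt6 (3.64, 3.07 and 4.07 CPM, then 2.96, 2.73 and 2.85). Sirt3 had a fold of 1.15 (0.933 to 1.42, adjusted p = 0.393) and Sirt6 of 0.808 (0.474 to 1.38, adjusted p = 0.633). The separation of Sirt5 held with TMM alone, since with library totals water mice had 11.38 to 16.57 CPM and NMN mice 7.637 to 11.54 CPM (log2 -0.50, adjusted p = 0.205), and in TPM they also overlapped. That of Sirt6 was likewise absent on both other scales, while Sirt3 was separated on all 3. The TMM factor was 0.64 to 0.6849 in water and 0.7144 to 0.784 in NMN livers. All 3 NMN libraries also had a larger share of reads outside annotated exons, 3.896% to 5.058% against 3.273% to 3.618%, and the hepatocyte markers, led by Alb, were lower, with a sum of 149000 to 173100 CPM against 200400 to 233200 CPM in water mice. Each of the 5 hepatocyte markers had a negative log2 change (median -0.357), and Ttr passed (log2 -0.97, adjusted p = 0.00227). The part of either in the Sirt5 value was not tested. At 1340 mg/kg/d Sirt5 had 14.57, 17.69, 12.86 and 18.69 CPM in water mice and 19.19, 17.07, 14.58 and 8.24 CPM in NMN mice, a log2 change of -0.10 (95% interval -0.62 to 0.41). The last of these libraries is replicate 4, which stood apart, and without it the change was 0.08. The NMN effect on Sirt5 at 2680 mg/kg/d differed between liver and kidney by -0.79 on the log2 scale (SE 0.27, unadjusted p = 0.0102, adjusted p = 0.127).

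Cd38 was higher in each of the 3 NMN kidneys at 2680 mg/kg/d, and this was the smallest p of any member in the 4 comparisons of NMN with water. Water mice had 3.64, 3.43 and 3.70 CPM and NMN mice 5.67, 5.07 and 4.999 CPM, from 73 to 89 and 149 to 215 reads. The groups were also apart with library totals and in TPM. The fold was 1.46 (95% interval 1.15 to 1.86, unadjusted p = 0.00461, adjusted p = 0.195), and groups did not overlap for 17.1% of all genes (8.11% higher, 9.01% lower). At 1340 mg/kg/d water mice had 4.67, 6.18, 3.06 and 5.32 CPM and NMN mice 3.83, 4.95, 5.31 and 4.54 CPM, with the NMN libraries inside the range of the water libraries and a fold of 0.969 (0.7 to 1.34). Groups did not overlap for 5% of genes there. The difference between schedules was 0.59 (SE 0.29, unadjusted p = 0.0537, adjusted p = 0.999). In the same NMN kidneys at 2680 mg/kg/d the proximal tubule markers summed to 15220 to 19260 CPM against 21120 to 22800 CPM in water mice, and the libraries were deeper, with 22922994 to 33872983 reads against 16358886 to 18983689. Macrophage markers (29.11 to 41.56 against 31.45 to 37.61 CPM), B and plasma cell markers (2.718 to 3.231 against 2.774 to 3.791 CPM) and T and NK cell markers (0.698 to 1.834 against 1.105 to 1.458 CPM) overlapped between the groups. The part of tissue make-up in the Cd38 value was not tested. In liver Cd38 had a fold of 1.32 (0.975 to 1.79, adjusted p = 0.774) at 1340 mg/kg/d and 1.17 (0.797 to 1.72, adjusted p = 0.625) at 2680 mg/kg/d, and the latter rested on NMN replicate 3, at 20.09 CPM against 10.62 and 13.91 in the other two. Without it the log2 change was -0.04.

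Sirt3 in kidney had 34.25, 37.05 and 38.24 CPM in water mice and 37.66, 46.56 and 46.34 CPM in NMN mice at 2680 mg/kg/d, with 1 NMN library among the water libraries and a fold of 1.2 (1.03 to 1.39, unadjusted p = 0.0205, adjusted p = 0.34). At 1340 mg/kg/d the fold was 0.949 (0.832 to 1.08). Sirt5 in kidney did not overlap at 2680 mg/kg/d (9.78, 9.54 and 8.89 CPM in water mice, 10.51, 9.83 and 10.49 in NMN mice) but by little, with a fold of 1.1 (0.924 to 1.3, adjusted p = 0.719). The sirtuins with the highest read numbers gave the tightest limits. In kidney, Sirt2 had a fold of 0.926 in both schedules (0.815 to 1.05 and 0.818 to 1.05), and Sirt7 of 0.983 (0.845 to 1.14) and 1.06 (0.925 to 1.22), so larger changes than these limits are outside the 95% intervals. In liver, Sirt6, with 24 to 49 reads per library, had wider intervals of 0.572 to 1.41 and 0.474 to 1.38, and changes of these sizes lie inside them. Summed over the 7 sirtuins, liver had 268.2 ± 18.3 CPM in water and 265.7 ± 10.97 in NMN mice at 1340 mg/kg/d (n = 4 each) and 262.9 ± 19.2 and 269.1 ± 6.97 at 2680 mg/kg/d (n = 3 each), and kidney had 202.8 ± 8.00 and 191.6 ± 9.36, then 194.5 ± 5.51 and 198.8 ± 11.8, and on this scale the NMN and water libraries overlapped in all 4 comparisons. The outcome in liver at 2680 mg/kg/d depended on the scale, since the summed TPM was 75.65 ± 4.12 in water mice (71.79 to 79.98) and 89.45 ± 5.89 in NMN mice (85.29 to 96.19), without overlap. The other 3 comparisons overlapped in TPM as well. Overlap depended on the scale for single sirtuins too. With library totals the NMN libraries lay above those of water mice for Sirt1 and Sirt2 in liver and Sirt3 in kidney at 2680 mg/kg/d. They lay below them for Sirt2 in kidney at 1340 mg/kg/d. In TPM they lay above them for Sirt2 in liver and Sirt3 in kidney at 2680 mg/kg/d. Sirt5 in kidney at 2680 mg/kg/d overlapped with library totals. Over all genes non-overlap was counted with TMM CPM only. It held for 29.2% in liver and 17.1% in kidney at 2680 mg/kg/d, and for 5% in kidney at 1340 mg/kg/d. Whether separation with library totals or in TPM was more frequent among the members than among all genes was not tested.

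Bst1 reads in liver were few but not evenly spread. Once-daily water mice had 0, 2, 0 and 0 reads (0, 0.181, 0 and 0 CPM) and NMN mice 6, 6, 4 and 2 reads (0.616, 0.4995, 0.341 and 0.194 CPM). In CPM every NMN library was above every water library. In reads NMN replicate 4 and water replicate 2 tied at 2, so their order rests on library size. Non-overlap held for 3.54% of the tested genes in this comparison, of which Bst1 was not one. The exact permutation test of log2(CPM + 0.5), two-sided, gave p = 0.0286, the smallest that 4 against 4 allows, and 0.471 after adjustment over the 40 such tests. In twice-daily mice the groups overlapped, with 0, 3 and 11 reads in water and 0, 6 and 9 in NMN mice. Kidney, where Bst1 had 128 to 419 reads per library, gave a fold of 1.05 (0.807 to 1.36) and 1.07 (0.817 to 1.41). The proximal tubule markers in the once-daily liver libraries were 48.7 to 55.53 CPM in water and 48.6 to 68.45 CPM in NMN mice. Neutrophil markers summed to 2.764 to 3.939 CPM in water and 2.618 to 17.96 CPM in NMN mice, with the largest level in S100a9 in NMN mice. T and NK cell markers also had the higher mean in NMN mice (0.939 to 1.633, then 1.164 to 3.497 CPM). Lower means in NMN mice were those of B and plasma cell markers (3.298 to 6.895, then 1.648 to 3.922 CPM) and macrophage markers (85.46 to 146.7, then 67.1 to 108.6 CPM). The part of any of these cells in the Bst1 reads was not tested. Sarm1 in liver had 0.64 to 1.31 CPM in water and 0.39 to 1.00 CPM in NMN mice at 1340 mg/kg/d, and 0.15 to 0.67 and 0.15 to 0.49 CPM at 2680 mg/kg/d, with overlap in both.

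No member passed in the tests of whether the NMN effect differed between schedules or organs. In the schedule comparison 0 of 9 tested members were called in liver, beside 0.0746% of genes (at an unadjusted p under 0.05, 0 members and 8.6% of genes), and 0 of 9 in kidney, beside 0.00625% (1 member and 4.61% of genes). The 1 member was Sirt3, with a difference between schedules in kidney of 0.33 (SE 0.13, unadjusted p = 0.0208, adjusted p = 0.999). In the organ comparison, leaving Bst1 out, 0 of 8 were called at each schedule and 1 (Sirt1) and 2 (Sirt1 and Sirt5) had an unadjusted p under 0.05, beside 0 of 15614 genes at 1340 mg/kg/d and 2.67% of 15811 at 2680 mg/kg/d (19.4% at an unadjusted p under 0.05). For the organ comparison at 1340 mg/kg/d, 5.79% of all genes had an unadjusted p under 0.05 and DESeq2 called 26 genes and no member.

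The genes that make NAD or work beside these enzymes were counted from lists by name. Of the genes of NAD synthesis, transport and nicotinamide removal, 14 of 16 were tested in liver at 2680 mg/kg/d, where 2 rose and 2 fell, beside 7.08% of all genes called. The hepatocyte markers were lower in the same NMN livers (149000 to 173100 against 200400 to 233200 CPM), and their part in this and the following lists was not tested. Slc25a51, the carrier that brings NAD into mitochondria, rose from 37.6 ± 7.61 to 81.5 ± 17.7 CPM (log2 1.15, SE 0.21, adjusted p = 0.0131), and Nampt, the rate-limiting enzyme of NAD salvage from nicotinamide, rose from 52.6 ± 8.41 to 85.9 ± 8.25 CPM (log2 0.73, SE 0.17, adjusted p = 0.0303). Nadsyn1, NAD synthetase of the de novo and nicotinic acid routes, fell from 35.2 ± 5.29 to 15.5 ± 2.77 CPM (log2 -1.16, SE 0.19, adjusted p = 0.00725), and Qprt, which feeds quinolinate into the de novo route, fell from 291.2 ± 28.1 to 167.0 ± 31.4 CPM (log2 -0.78, SE 0.15, adjusted p = 0.0167). The median log2 change over the list was -0.0352, beside 0.00447 over all genes. In the other 3 comparisons none of 13 or 14 tested genes passed, and the smallest p belonged to Slc25a51 in liver at 1340 mg/kg/d (log2 0.59, adjusted p = 0.452) and to Qprt in kidney (log2 -0.39, adjusted p = 0.107, and -0.36, adjusted p = 0.108). The Nampt call was lost without any of 4 of the 6 libraries (adjusted p up to 0.128: water replicates 1 and 2, NMN replicates 1 and 3) and with all 14 liver libraries in 1 fit (0.0815), the Qprt call without any of 3 (up to 0.0837: water replicates 1 and 2, NMN replicate 3) and the Slc25a51 call without NMN replicate 3 (0.0571). In the fit of both schedules Slc25a51 rose in liver by 0.83 (adjusted p = 0.00841), and Qprt fell by 0.53 in liver and by 0.38 in kidney on the log2 scale (adjusted p = 0.0196 and 0.00234) (beside 4.21% and 1.28% of all genes called). The Qprt call in liver was lost without water replicate 2 or NMN replicate 3 of the twice-daily schedule (adjusted p = 0.0541 and 0.0566), and that in kidney held without any single library. Of the 5 proximal tubule markers, led by Kap, 3 also fell in kidney in that fit (Kap, Slc34a1 and Slc5a2, median of the 5 log2 -0.321), and the 5 summed to 13990 to 18970 CPM in NMN mice against 18840 to 25510 CPM in water mice at 1340 mg/kg/d, where markers of the distal nephron and podocytes summed to 3520 to 3702 CPM against 2719 to 3118 CPM. Their part in the Qprt and Glud1 values of kidney was not tested. DESeq2 also called Qprt in kidney in the single schedules (adjusted p = 0.00868 and 0.041).

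Of 5 other NAD-consuming enzymes, the ADP-ribosyltransferases Parp1, Parp2, Parp3, Tnks and Tnks2, 1 fell in liver at 2680 mg/kg/d, beside 7.08% of all genes called. Parp3, which acts in DNA repair, went from 33.4 ± 1.70 to 19.8 ± 4.12 CPM (log2 -0.73, SE 0.19, adjusted p = 0.0416), a call lost without any library but NMN replicate 2 (adjusted p up to 0.167) and with library totals (0.0752). None passed in the other 3 comparisons, with the smallest p for Parp1 in liver at 1340 mg/kg/d (log2 -0.35, adjusted p = 0.737) and for Tnks and Parp1 in kidney (0.23, adjusted p = 0.592, and 0.18, adjusted p = 0.457). Of 12 enzymes whose lysines mitochondrial sirtuins are known to modify, 2 of 11 tested fell in liver at 2680 mg/kg/d, beside the same 7.08%. Idh2, mitochondrial isocitrate dehydrogenase, went from 157.1 ± 10.5 to 81.1 ± 11.3 CPM (log2 -0.93, SE 0.14, adjusted p = 0.00559), and Glud1, glutamate dehydrogenase, from 1648 ± 149 to 904.2 ± 114 CPM (log2 -0.84, SE 0.14, adjusted p = 0.00672). Both calls held without any single library. Glud1 had the opposite sign in kidney, at 0.46 (adjusted p = 0.115) and 0.62 (adjusted p = 0.0736) in the single schedules, where DESeq2 called it (adjusted p = 0.0138 and 0.000522). In the kidney fit of both schedules Glud1 rose by 0.53 (adjusted p = 0.00443), beside 1.28% of all genes called. In the fit of both schedules in liver Parp1, Parp3 and Idh2 passed (adjusted p = 0.0476, 0.0476 and 0.0495), beside 4.21% of all genes called. Each of these 3 calls was lost without any of 11 or 12 of the 14 libraries. In liver at 1340 mg/kg/d the smallest p was that of Acadl (0.33, adjusted p = 0.67).

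None of 11 regulators, partners and targets of the nuclear and cytosolic sirtuins passed in a single schedule, beside 0.0161% and 7.08% of all genes in liver and 0.12% and 0.4% in kidney. The smallest p belonged in liver to Foxo1 (log2 0.51, adjusted p = 0.6) and Crtc2 (0.67, adjusted p = 0.0686), and in kidney to Nr1h4 (0.63, adjusted p = 0.151) and Foxo3 (0.60, adjusted p = 0.132). DESeq2 called Crtc2 (adjusted p = 0.0281), Nr1h4 (0.00907) and Foxo3 (0.00504) in these comparisons. In the fit of both schedules in liver, Crtc2, Foxo1 and Nr1h3 passed (log2 0.49, 0.53 and -0.38, adjusted p = 0.0417, 0.0469 and 0.0349), beside 4.21% of all genes, but each call was lost without any of 9 or 10 of the 14 libraries. In kidney that fit gave Foxo3 a log2 change of 0.74 (adjusted p = 0.0604), which DESeq2 called (adjusted p = 0.000162). A further list held 9 genes that handle or respond to ADP-ribose, cyclic ADP-ribose or NAADP, the products of CD38. None of 6 or 7 tested passed in edgeR in a single schedule or in the fit of both. In that fit all 7 tested were lower in kidney (median log2 -0.141, beside -0.000893 over all genes), and 3 were higher and 4 lower in liver. DESeq2 called Tpcn1 in liver (log2 -0.39, adjusted p = 0.0377) and Mcoln1 in kidney (log2 -0.20, adjusted p = 0.0494) in the fit of both schedules. In single schedules the smallest p belonged to Tpcn1 and Mcoln1 in liver (-0.37, adjusted p = 0.692, and 0.34, adjusted p = 0.184) and to Mcoln1 and Ryr2 in kidney (-0.22, adjusted p = 0.511, and -0.66, adjusted p = 0.466).

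As a description, the genes most like 1 member in each organ were sought over its 14 libraries, by Pearson's r of log2 CPM after subtracting the group mean. The member was that of smallest edgeR p in the single-schedule comparisons of NMN with water. In the fit of both schedules the smallest was that of Sirt1 in liver (unadjusted p = 0.00309) and of Sirt2 in kidney (unadjusted p = 0.0592). For Sirt5 in liver, among 11981 genes, the most alike were Hmox2 (r = 0.941), Chmp5 (r = 0.939) and Itm2b (r = 0.919), which encode heme oxygenase 2, an ESCRT-III subunit and an integral membrane protein. Without replicate 4 of the once-daily NMN livers the values were 0.897, 0.895 and 0.907. Among the members, Sirt2 had r = 0.679 and Sirt1 r = -0.382 with Sirt5. For Cd38 in kidney, among 14546 genes, they were 4930503L19Rik (r = 0.917), the interferon-inducible Ifi203 (r = 0.913) and the G protein subunit Gnb4 (r = 0.885), and without water replicate 3 of the once-daily schedule, the kidney library with the largest share of reads outside exons, they were 0.829, 0.835 and 0.824. Libraries share depth and tissue make-up within an organ, and these values were the highest of many.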

How the data were processed

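PolyA RNA was sequenced from liver and kidney on a NextSeq 550 or HiSeq Xten, without a statement of which library ran on which. The authors used STAR for alignment and HTSeq for counting (strict intersection, strand ignored), and deposited unfiltered raw counts per gene. No mouse assembly has the build name the article gives. Identifiers matched GENCODE M21, 53229 with version, 1180 without and 37 not at all. Rows naming no gene held 18.58% to 29.28% of reads and were left out.

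Counts were tested in R 4.3.3 with edgeR 4.0.16 (filterByExpr, TMM, robust quasi-likelihood F test, Benjamini-Hochberg over all tested genes, threshold 0.05) on the libraries of each comparison, with steps tested on simulated data. Alternatives were DESeq2 1.42.0, other scalings and filters, a replicate block, all 14 libraries of an organ in 1 fit, and leaving out single libraries. TPM used the union of annotated exons. P-values measure the spread between these libraries. All members are named, and from each list the genes past the threshold (at most 4) or else the 1 of smallest p. Members and lists were chosen with earlier results of these data known.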

Additional observations from a re-analysis of the deposited data

Results flagged for a closer look

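Within groups of 4 libraries, a gap test (Dixon's, at 95%) was run for each member, 40 tests in all, of which chance flags about 1 in 20. It marked 2 libraries. Sirt4 in liver of once-daily NMN mice was 13.7 CPM in replicate 2 and 9.97 to 10.6 CPM in the other 3. Bst1 in liver of once-daily water mice was 0.181 CPM, from 2 reads, in replicate 2 and 0 in the other 3. With those at 0, any read in replicate 2 would have been marked, so this mark adds nothing to the reads.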

How the results depend on the processing

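No member was called for NMN in a single schedule under any alternative at an adjusted p under 0.05, and with an unadjusted p under 0.05 the counts were 1 in liver at 1340 mg/kg/d and 2 each in liver and kidney at 2680 mg/kg/d. In the fit of both schedules in liver 1 member, Sirt1, was called by DESeq2 and 1, again Sirt1, with the replicate block (adjusted p = 0.0242), and 0 to 1 when single libraries were left out. Of 2374 values of named genes under alternatives, 2232 kept direction and side of the threshold or moved within their SE, 87 lost the call, 43 gained it and 12 changed sign. Genes that were never called count among those kept, as did all 208 values in liver at 1340 mg/kg/d. In the fit of both schedules in liver, where more genes were called, 68 of 285 values lost the call. Several calls were lost without single libraries, and the cause was not tested. Others held without any single library, among them Idh2, Glud1 and Nadsyn1 in liver at 2680 mg/kg/d.

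Counts of all genes called moved with the filter, the tool, the threshold and single libraries. For NMN in liver at 1340 mg/kg/d the count of 2 became 44 with no filter, 74 with DESeq2, 16 with the replicate block, 6 with all 14 libraries, 854 without adjustment, 0 with both a 2-fold limit and an adjusted p under 0.01, and 0 to 18 without single libraries. In liver at 2680 mg/kg/d 883 became 1785, 1448 (no filter, DESeq2), 3072 without adjustment, 135 at the strict limit and 211 (without water replicate 2) to 1308 (without NMN replicate 2). In kidney at 1340 mg/kg/d 18 became 269, 159, 75 with the block, 1338, 2 and 5 to 67. In kidney at 2680 mg/kg/d 61 became 514, 236, 92 with the block, 35 with all 14 libraries, 1688, 3 and 3 to 191. For the schedule difference in liver 10 became 71, 99 and 7 to 25. In kidney 1 became 0 with upper quartile scaling, with library totals and with at least 10 counts, 106 with no filter, 10 with DESeq2, 2 with the block and 0 to 1. For the organ difference of the NMN effect at 1340 mg/kg/d 0 became 2 with library totals, 9, 26, 5 with the block and 0 to 9. At 2680 mg/kg/d 422 became 1307, 1232, 247 with the block and 118 to 1347. For both schedules 564 in liver became 1162 with DESeq2 and 177 to 1118, and 204 in kidney became 509 and 100 to 290.

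Signs changed with library totals for liver against kidney in once-daily mice (Sirt2 -0.76, Sirt3 -0.26, Sirt4 -0.86, Sirt5 -0.17, Sirt7 -0.38 and Cd38 -0.0516) and in twice-daily mice (Sirt2 -0.79 and Sirt7 -0.41), where Sirt2 was also -0.0140 with upper quartile scaling. In the organ difference of the NMN effect at 2680 mg/kg/d Sirt3 was 0.0947 with library totals, and Bst1 ranged from -0.9082 without liver NMN replicate 3 to 1.5033 without liver water replicate 3. Cd38 in liver at 2680 mg/kg/d ranged from -0.0442 without NMN replicate 3 to 0.3932 without NMN replicate 1. Deviations of same-numbered libraries did not correlate above 0.1 in every pair of any of the 10 comparisons (lowest -0.123), and no label ties them to 1 mouse, so whether the numbers pair the mice was not settled. Their mean correlation was above that of other pairs in each comparison, and between liver and kidney of water mice every same-numbered pair was positive (0.0851 to 0.273 and 0.0876 to 0.207). The main tests between organs treated liver and kidney libraries as independent, although by the group sizes in the article some mice gave both. With the replicate block, Foxo3 in kidney passed at 2680 mg/kg/d (adjusted p = 0.0149) and for both schedules (0.00458), as did Glud1 in kidney at 1340 mg/kg/d (0.0301), whereas Crtc2, Idh2, Parp1 and Parp3 in liver for both schedules did not (0.0651, 0.0796, 0.0537 and 0.0571). Values on under 50 reads (Bst1 and Sirt6 in liver, Sarm1) have the larger counting error, which was not separated from the spread between mice.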
